A study of Mus musculus with 12 samples.

Results

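Cholesterol synthesis and its control by the transcription factor SREBP2 were followed through 28 listed genes in BV2 cells, an immortalised mouse microglial line. Of the 28 genes, 25 had a gene-level array feature of their own among 22180 genes tested. Each gene was taken from the rows annotated to its symbol, using the feature with the highest mean signal where there were several. The listed genes Acat2, Soat1 and Idi1 were not analysed here, Idi1 because its feature also carries the symbol of a gene model. The 25 measured genes were 6 enzymes of the early mevalonate pathway and 11 from the making of squalene to cholesterol. The others were 4 regulators of SREBP processing and 4 genes of sterol transport and lipid metabolism. The 6 include Ggps1, which makes geranylgeranyl diphosphate on a branch beside the way to cholesterol. The 11 include the squalene synthase Fdft1 and are named below as enzymes from squalene to cholesterol or from squalene on.

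Cells build cholesterol from acetyl-CoA by way of mevalonate, the isoprenoid farnesyl diphosphate, squalene and lanosterol. When sterols in the endoplasmic reticulum run low, the escort protein Scap carries SREBP2 to the Golgi, where it is cut to an active transcription factor that raises most genes of the pathway. When sterols are plentiful, the Insig proteins hold Scap and SREBP2 back. In macrophages and microglia, cholesterol handling is tied to inflammatory signalling.

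The study compared 4 groups of wild-type BV2 cells with 3 arrays each, to ask how telmisartan and LPS act singly and together. All groups were in medium with 10% serum and 1.5% DMSO for 3 h in total. The DMSO group had vehicle only, the LPS group had vehicle for 2 h and then LPS for 1 h, the Telmisartan group had the drug alone for 3 h, and the Telmisartan+LPS group had the drug for 2 h and then LPS for 1 h. LPS, a bacterial lipopolysaccharide, is sensed by Toll-like receptor 4. Telmisartan blocks the type 1 receptor for angiotensin II and is also a partial agonist of PPAR gamma. Another line of the protocol can be read as 3 h for either agent given alone, whereas the sample titles give 1 h for LPS. The dose of neither is given in the sources used here, and the labels name no batch. The labels call samples independent but also speak of triplicate analysis, and nothing ties an array to a culture of its own, so p-values reflect the spread from array to array, which may be technical. In these bulk samples, fewer expressing cells and less RNA per cell cannot be told apart.

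The cell label was set against markers. All 10 microglia and macrophage markers were above a log2 signal of 5, the limit used for dim genes, and their mean lay between 9.46 and 9.55 on every array. Of 6 markers of homeostatic brain microglia, 1 (Olfml3) was above that limit, and Tmem119 and P2ry12 were below it on average. Of the markers of other cell types, 0 of 5 for astrocytes, 0 of 4 for oligodendrocytes, 0 of 5 for fibroblasts and 1 of 5 for neurons (Rbfox3) were above it. In LPS against DMSO, 7 of 8 early response genes, all but Ccl3, rose, among them Tnf by 1.60 and Il1b by 4.19. In Telmisartan+LPS, replicates 1 and 3 were far from all other arrays on principal components (replicate 1 at -17.31 on the third, replicate 3 at -20.18 on the second), and the main results that use that group are given with and without them. All values below are log2 RMA signals, differences are log2 differences of group means with the SE of the limma fit, and intervals are 95%. Genes with a p under 0.05 after Benjamini-Hochberg adjustment over all genes tested are named called.

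No measured gene of the pathway was called in any of the comparisons. With telmisartan, 18 of 25 genes were higher on the average of both LPS states, with a median difference of 0.07 (all genes tested, 0.0017), and Msmo1 had the highest average at 0.17, or 12.4%. With LPS, 16 of 25 were lower on the average of both drug states, with a median of -0.042 (all genes, 0.0033), and the prenyl chain enzyme Ggps1 had the lowest at -0.19, or -12.2%. Over the 4 comparisons of single groups, the differences of the 25 genes ran from -0.23 to 0.22.

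Promoters of 4 genes are shown, none of which was called in the main fit. The 6 drug arrays of Insig1 all lay above the 6 arrays without drug. Hmgcs1 and Msmo1 were among the highest with telmisartan alone. Cyp51, at 0.22 in that comparison, is not shown. The 6 LPS arrays of Ggps1 all lay below the 6 arrays without LPS. Each stretch shown is the 250 bases before the gene's start in RefSeq (GRCm38.p6), read 5′ to 3′ on the gene's strand. Capitals mark the CCAAT box, which NF-Y binds and which is a common partner of SREBP sites, on either strand (CCAAT or ATTGG), and the sterol regulatory element TCACNCCAC.
Insig1 (chr5:28071162-28071411, + strand): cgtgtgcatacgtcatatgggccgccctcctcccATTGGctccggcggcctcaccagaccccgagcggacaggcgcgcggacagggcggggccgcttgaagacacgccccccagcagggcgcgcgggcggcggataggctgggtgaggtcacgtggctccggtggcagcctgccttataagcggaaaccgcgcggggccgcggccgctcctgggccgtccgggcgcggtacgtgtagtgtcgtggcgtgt
Hmgcs1 (chr13:119690101-119690350, + strand): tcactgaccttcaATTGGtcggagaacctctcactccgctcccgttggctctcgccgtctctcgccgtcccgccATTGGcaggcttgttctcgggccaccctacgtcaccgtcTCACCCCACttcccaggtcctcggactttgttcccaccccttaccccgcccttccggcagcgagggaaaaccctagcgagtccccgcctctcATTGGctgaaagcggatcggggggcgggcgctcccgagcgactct
Msmo1 (chr8:64733579-64733828, - strand): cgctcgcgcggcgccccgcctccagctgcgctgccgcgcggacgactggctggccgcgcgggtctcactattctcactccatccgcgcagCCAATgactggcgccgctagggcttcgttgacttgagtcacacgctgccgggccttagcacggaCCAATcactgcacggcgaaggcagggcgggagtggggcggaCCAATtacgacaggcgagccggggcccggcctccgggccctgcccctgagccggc
Ggps1 (chr13:14063489-14063738, - strand): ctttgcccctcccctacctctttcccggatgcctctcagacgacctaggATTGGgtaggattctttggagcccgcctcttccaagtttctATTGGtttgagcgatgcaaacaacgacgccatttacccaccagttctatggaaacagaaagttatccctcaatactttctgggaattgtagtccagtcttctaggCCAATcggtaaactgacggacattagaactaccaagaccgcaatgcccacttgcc
The stretch of Hmgcs1 held 3 CCAAT boxes and 1 sterol regulatory element, TCACCCCAC, that starts at -137 from the gene's start. Msmo1 and Ggps1 held 3 CCAAT boxes each and Insig1 held 1.

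RefSeq windows of 250 bases before to 50 bases after the start were used for 20 of the 25 genes, and 4 of these had several windows. Both strands were searched for 4 motifs, and overlaps between motifs were allowed. CCAAT was found in 18 of the 20 genes (90%), against 41.6% of 16990 genes with a window. GGGCGG, the GC box bound by Sp1, was found in 17 of 20 (85%), against 49.5%, and the stretch shown for Ggps1 held 0. TCACNCCAC was found in 1 of 20 (Hmgcs1; 5%), against 1.43%, and the E-box form TCACNTGA in 1 of 20 (Insig2; 5%), against 4.83%. The 16990 genes were not filtered for signal, whereas all 25 pathway genes had a mean above the dim limit. Only the letters given were searched, with N as any base, so other forms of these sites were not counted. A match is a description of letters in the window and was not tied to any of the values.

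Telmisartan without LPS was compared with DMSO to ask what the drug does in resting cells. Of the 25 genes, 17 were higher (68%, against 46.9% of all genes tested), with a median difference of 0.077 (all genes, -0.0067), or 0.045 when DMSO replicate 1 was left out. The 3 Telmisartan arrays lay above the 3 DMSO arrays for 7 genes (28%; all genes, 4.73%) and below them for 1 gene, Fdps (4%; all genes, 6.66%). At an unadjusted p under 0.05 in limma, 5 genes were higher (20%; all genes, 2.48%) and 0 lower (all genes, 3.03%). After Benjamini-Hochberg adjustment 0 of 25 passed, as did 0% of all genes in either direction, and the smallest adjusted p of a pathway gene was 0.86.

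**Figure D1:**
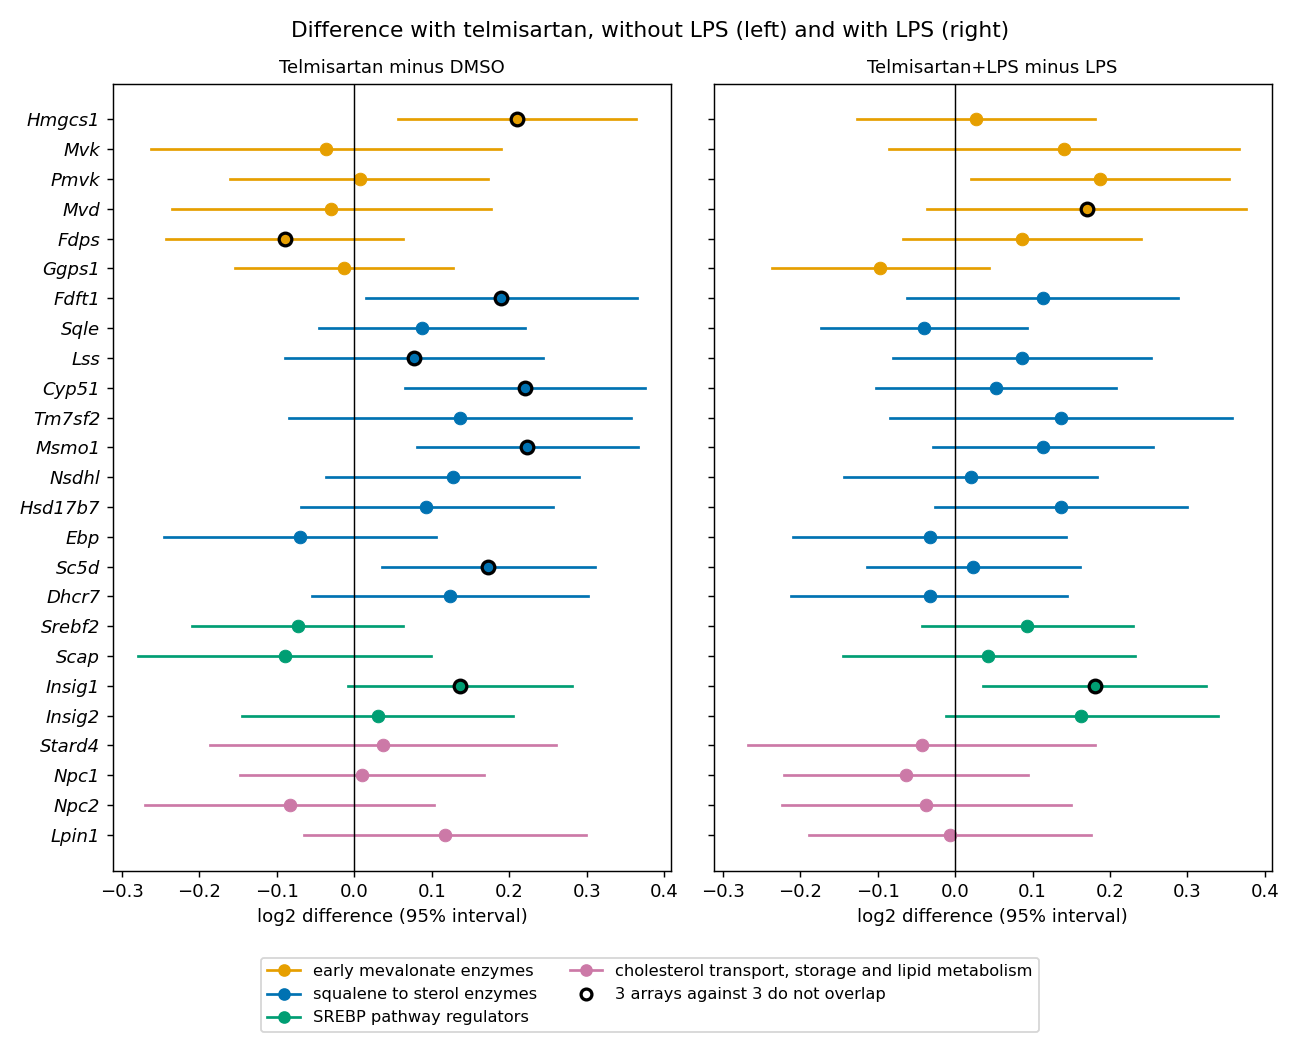
Log2 differences of the 25 pathway genes (points, with 95% intervals of the limma fit as bars) for telmisartan without LPS and with LPS, genes ordered by role. Most enzymes from squalene to cholesterol sit above 0 without LPS (10 of 11), and no gene passes the adjusted threshold.

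Of the enzymes from squalene to cholesterol, 10 of 11 were higher, with a median of 0.13, and the exception was Ebp, a sterol isomerase. Msmo1, an oxidase that works in the removal of methyl groups from early sterols, was at 9.58, 9.58 and 9.62 in DMSO and at 9.82, 9.82 and 9.81 in Telmisartan. The groups did not overlap, and the spread within each was small beside the gap between them. The difference was 0.22 (SE 0.066, interval 0.081 to 0.37), with an unadjusted p of 0.00487 and an adjusted p of 0.86.

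Cyp51, the demethylase of lanosterol, was at 8.94, 8.85 and 8.86 in DMSO and at 9.18, 9.15 and 8.98 in Telmisartan. The lowest Telmisartan array lay close to the highest DMSO array, and the difference was 0.22 (SE 0.072, adjusted p = 0.872 in limma). Fdft1, the squalene synthase that commits farnesyl diphosphate to sterols, was at 9.76, 9.85 and 9.84 in DMSO and at 10.14, 9.97 and 9.91 in Telmisartan. Its first Telmisartan array was the highest, and the difference of 0.19 (SE 0.081) was 0.12 without that array. Sc5d, a sterol desaturase late in the pathway, was at 9.54, 9.49 and 9.55 in DMSO and at 9.7, 9.74 and 9.66 in Telmisartan, again without overlap, and differed by 0.17 (SE 0.063, adjusted p = 0.877).

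The other enzymes of this stretch had smaller differences. Lss, the lanosterol synthase, also had groups that did not overlap, at 8.28 ± 0.0058 (SD, n = 3) in DMSO and 8.35 ± 0.012 (SD, n = 3) in Telmisartan, a difference of 0.077 that was no larger than its fitted SE of 0.077. Tm7sf2, a sterol reductase, differed by 0.14, Nsdhl and Hsd17b7, which work with Msmo1 in demethylation, by 0.13 and 0.093, and Dhcr7, the reductase of the last step, by 0.12, each with an interval that spanned 0. Sqle, the squalene epoxidase and a point of control of the pathway, was at 9.69, 9.6 and 9.63 in DMSO and at 9.68, 9.76 and 9.74 in Telmisartan, which overlapped. Ebp was at -0.07 (SE 0.081).

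Among the early enzymes, Hmgcs1 stood alone. This HMG-CoA synthase makes the substrate of the rate-limiting reductase. It was at 9.64, 9.68 and 9.66 in DMSO and at 9.85, 9.9 and 9.86 in Telmisartan, with tight groups that did not overlap, and differed by 0.21 (SE 0.071, interval 0.056 to 0.36, adjusted p = 0.872 in limma). Of the other 5, Pmvk alone was higher, and the median of all 6 was -0.022. Pmvk was at 8.19, 8.14 and 8.13 in DMSO and at 8.26, 8.13 and 8.09 in Telmisartan, and Mvd at 7.45, 7.65 and 7.54 and at 7.71, 7.54 and 7.3. Both overlapped, and the Telmisartan arrays of Mvd were the more spread. Fdps, the farnesyl diphosphate synthase, was at 9.69, 9.69 and 9.76 in DMSO and at 9.6, 9.67 and 9.6 in Telmisartan, a difference of -0.09 (SE 0.071).

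Of the regulators, Insig1, the sterol-sensing anchor of Scap and itself an SREBP target, was at 10.38, 10.31 and 10.23 in DMSO and at 10.43, 10.4 and 10.5 in Telmisartan. The groups did not overlap, but the gap between the nearest arrays was small, and the difference of 0.14 (SE 0.067) had an interval of -0.008 to 0.28. Srebf2, which encodes SREBP2, was at 9.83, 9.94 and 9.83 in DMSO and at 9.76, 9.79 and 9.83 in Telmisartan, and differed by -0.073 (SE 0.063). Scap was at 8.99, 8.91 and 8.88 in DMSO and at 8.93, 8.73 and 8.85 in Telmisartan, and differed by -0.09 (SE 0.087). The mRNA of neither Srebf2 nor Scap was higher in the arrays in which most enzymes were, and both intervals spanned 0. Cutting of the SREBP2 protein was not measured. Stard4, a soluble sterol carrier, was at 7.19, 7.38 and 7.13 in DMSO and at 7.12, 7.35 and 7.34 in Telmisartan, with overlap. The lysosomal cholesterol exporters Npc1 and Npc2 were at 0.01 (SE 0.073) and -0.083 (SE 0.086).

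**Figure D2:**
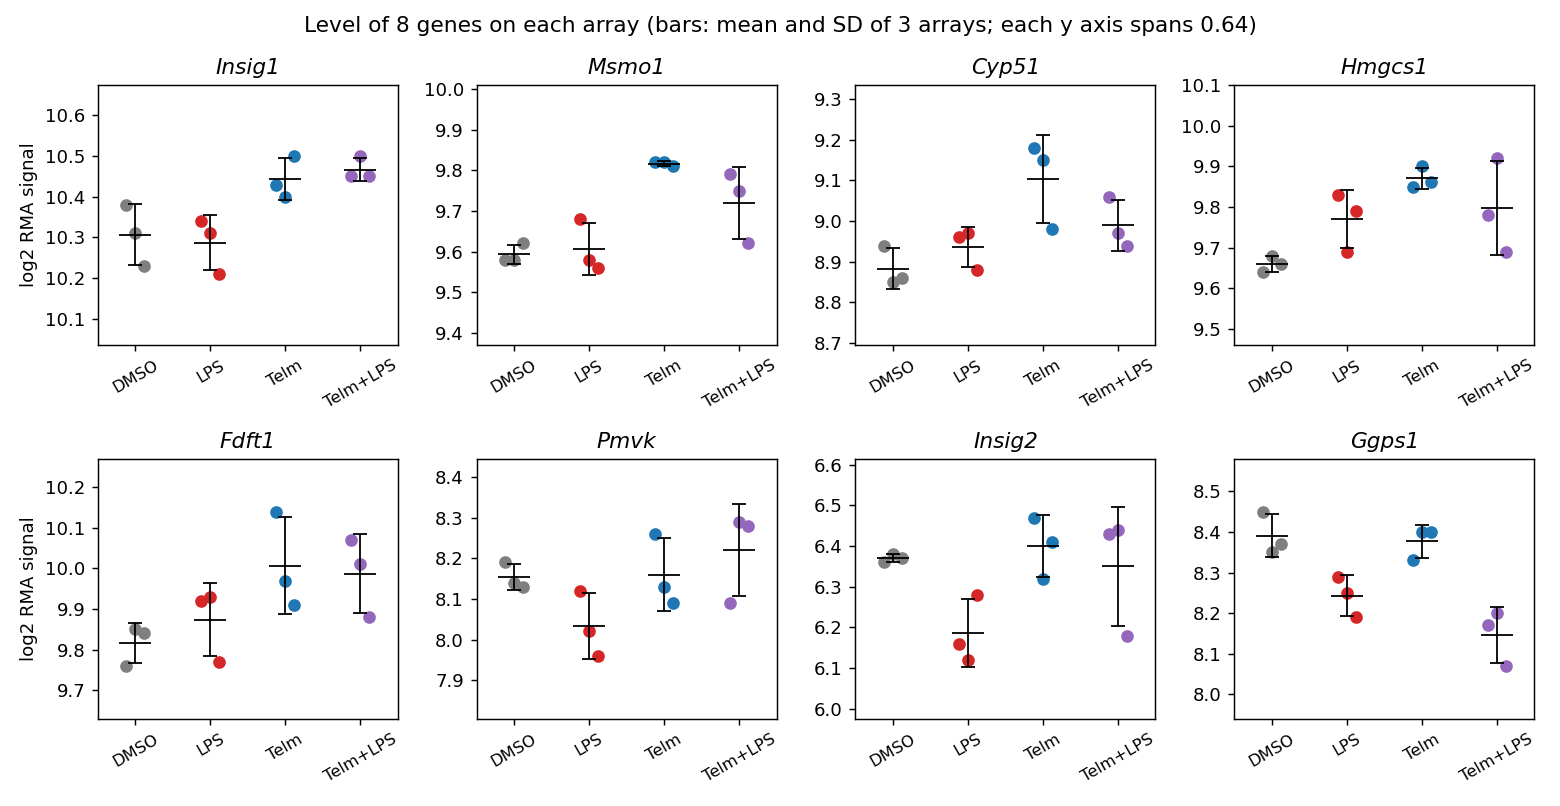
Log2 RMA signal of 8 pathway genes on each of the 12 arrays (points), by group, with the mean and SD of 3 arrays as bars; Telm stands for Telmisartan, and every y axis has the same span. The Telmisartan arrays of Msmo1 and Hmgcs1 lie above all 3 DMSO arrays, and Ggps1 is lowest in both groups given LPS.

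Telmisartan+LPS was compared with LPS to ask what the drug does in cells given LPS. Of the 25 genes, 17 were higher (68%, against 53.7% of all genes), with a median of 0.053 (all genes, 0.013). The groups did not overlap for 2 genes, Mvd and Insig1, both higher (8%; all genes, 6.74%), and for 0 genes lower (all genes, 6.23%), so the share was close to that of all genes. At an unadjusted p under 0.05 in limma, 2 genes were higher (8%; all genes, 5.5%) and 0 lower (all genes, 4.31%). None was called after Benjamini-Hochberg adjustment, as was 0% of all genes, and the smallest adjusted p was 0.407. Without Telmisartan+LPS replicate 1, 20 of 25 genes were higher and the median was 0.052. Without replicate 3, 17 were higher and the median was 0.078.

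The counts by role in cells given LPS were as follows. Of the early enzymes 5 of 6 were higher with the drug (median 0.11), of the enzymes from squalene on 8 of 11 (median 0.053), of the regulators 4 of 4 (median 0.13) and of the transport and lipid genes 0 of 4 (median -0.04). Pmvk, the phosphomevalonate kinase, had the highest difference. It was at 8.12, 8.02 and 7.96 in LPS and at 8.09, 8.29 and 8.28 in Telmisartan+LPS. The first Telmisartan+LPS array lay inside the LPS range and the other two above it, and the difference was 0.19 (SE 0.077, interval 0.020 to 0.35, adjusted p = 0.465 in limma), or 0.25 without that array and 0.16 without Telmisartan+LPS replicate 3.

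Insig1 was at 10.34, 10.31 and 10.21 in LPS and at 10.45, 10.5 and 10.45 in Telmisartan+LPS. All 3 arrays with drug were above all 3 without, and the difference was 0.18 (SE 0.067, interval 0.036 to 0.32, adjusted p = 0.407). Leaving out Telmisartan+LPS replicate 1, or replicate 3, gave 0.19 each. Insig2, the second Insig protein, was at 6.16, 6.12 and 6.28 in LPS and at 6.43, 6.44 and 6.18 in Telmisartan+LPS. The third Telmisartan+LPS array lay in the LPS range, and the difference of 0.16 (SE 0.081) was 0.25 without it and 0.12 without the first.

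Mvd, the decarboxylase that ends the mevalonate steps, was at 7.5, 7.56 and 7.47 in LPS and at 7.63, 7.75 and 7.66 in Telmisartan+LPS, without overlap, and differed by 0.17 (SE 0.095, adjusted p = 0.59 in limma), or by 0.20 and 0.18 with Telmisartan+LPS replicate 1 or 3 left out. Srebf2 was at 9.79, 9.83 and 9.76 in LPS and at 9.83, 9.9 and 9.93 in Telmisartan+LPS, which met at 9.83, and differed by 0.093 (SE 0.063), or by 0.12 and 0.072 with the same arrays left out. The DMSO arrays of this gene covered a like range. Scap was at 8.85, 8.89 and 8.88 in LPS and at 8.75, 8.9 and 9.1 in Telmisartan+LPS. The 3 Scap arrays with drug spread over more than the whole LPS range, and the difference of 0.043 (SE 0.087) moved to 0.13 when Telmisartan+LPS replicate 1 was left out and to -0.048 when replicate 3 was. The enzymes that were highest with the drug in resting cells overlapped here. Msmo1 was at 9.68, 9.58 and 9.56 in LPS and at 9.79, 9.75 and 9.62 in Telmisartan+LPS, Hmgcs1 at 9.83, 9.69 and 9.79 and at 9.78, 9.92 and 9.69, and Cyp51 at 8.96, 8.97 and 8.88 and at 9.06, 8.97 and 8.94. Fdft1 was at 9.92, 9.93 and 9.77 in LPS and at 10.07, 10.01 and 9.88 in Telmisartan+LPS. In each of these genes at least 1 array with drug lay within the LPS range. Mvk was at 6.29, 6.24 and 6.27 with drug and LPS, and Fdps at 9.57, 9.81 and 9.63, and both overlapped the LPS arrays. Stard4 was at 7.28, 7.06 and 7.24 in LPS and at 6.96, 7.24 and 7.25 in Telmisartan+LPS, also with overlap.

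The comparisons of the drug without and with LPS share no arrays, so their directions can be set side by side. The 25 genes are not separate observations, however. After the group means were removed, their mean pairwise correlation was 0.0969, and 0.23 among the 17 synthesis enzymes, against 0.00221 among all genes tested. The counts are therefore a description only. Of the 25 genes, 12 (48%) were higher with the drug in both, against 24.2% of all genes. They were Hmgcs1, Pmvk, Fdft1, Lss, Cyp51, Tm7sf2, Msmo1, Nsdhl, Hsd17b7, Sc5d, Insig1 and Insig2, of which 8 are among the enzymes from squalene on. A further 5 (Sqle, Dhcr7, Stard4, Npc1 and Lpin1) were higher without LPS only, and 5 (Mvk, Mvd, Fdps, Srebf2 and Scap) with LPS only. Lower in both were 3 genes, Ggps1, Ebp and Npc2. Insig1 alone had groups that did not overlap in both comparisons, as did 0.32% of all genes.

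**Figure D3:**
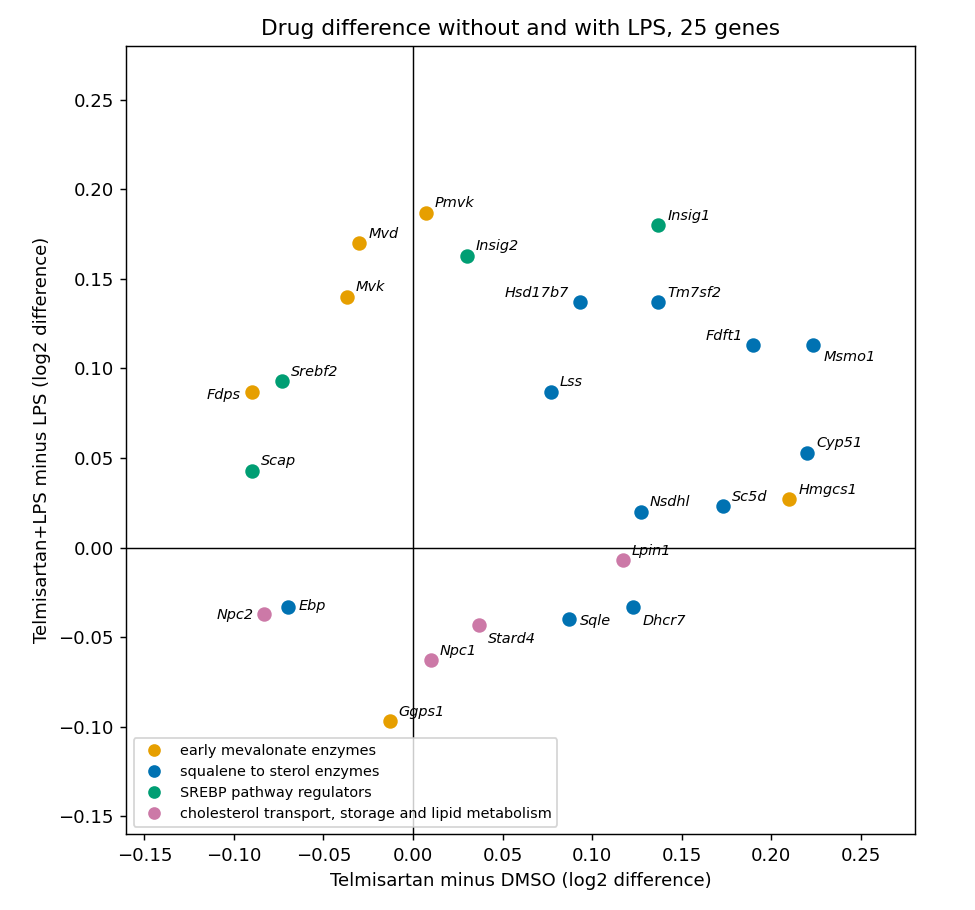
Log2 difference of each pathway gene with telmisartan in the absence of LPS (x axis) against that in cells given LPS (y axis), coloured by role; the comparisons share no arrays. 12 of 25 genes lie in the upper right part, among them Insig1, Msmo1 and Fdft1.

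Averaged over both LPS states, the drug difference was 0.17 for Msmo1 (SE 0.047, interval 0.068 to 0.27), with an unadjusted p of 0.00318 and an adjusted p of 0.538 in limma. Insig1 averaged 0.16 (SE 0.047, interval 0.056 to 0.26), or 11.6%, with the same adjusted p of 0.538. Its 6 arrays with drug ran from 10.4 to 10.5 (median 10.45) and its 6 arrays without from 10.21 to 10.38 (median 10.31), so that the groups did not overlap, as for no other of the 25 genes and for 0.122% of all genes in this direction. With Telmisartan+LPS replicate 1 or 3 left out, the averages were 0.15 and 0.19 for Msmo1 and 0.16 in both cases for Insig1, and the median of the 25 genes was 0.053 and 0.075. Fdft1 averaged 0.15, Cyp51 and Tm7sf2 0.14, Hmgcs1 0.12, Hsd17b7 0.12 and Sc5d and Insig2 0.098 and 0.097. At the other end, Srebf2 averaged 0.01 (interval -0.087 to 0.11), Sqle 0.023, Stard4 -0.003 and Scap -0.023, and 3 of these 4, all but Sqle, changed sign when single arrays were left out.

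At an unadjusted p under 0.05, 7 of 25 genes were higher on this average (28%; all genes, 3.84%) and 0 lower (all genes, 3.49%). Of all genes 0.00451%, a single gene, was called, and 50.8% were higher on this average. No interval over the 25 genes reached above 0.29 or below -0.19. Leaving out any single array kept 18 to 21 of the 25 genes higher. Array by array, the median deviation of the 25 genes from their DMSO means was 0.093, 0.04 and 0.063 in Telmisartan and -0.007, 0.073 and 0.017 in Telmisartan+LPS, against -0.017, -0.037 and -0.05 in LPS. The drug arrays without LPS were thus all above the other groups except for Telmisartan+LPS replicate 2, while Telmisartan+LPS replicate 1 was level with DMSO.

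**Figure D4:**
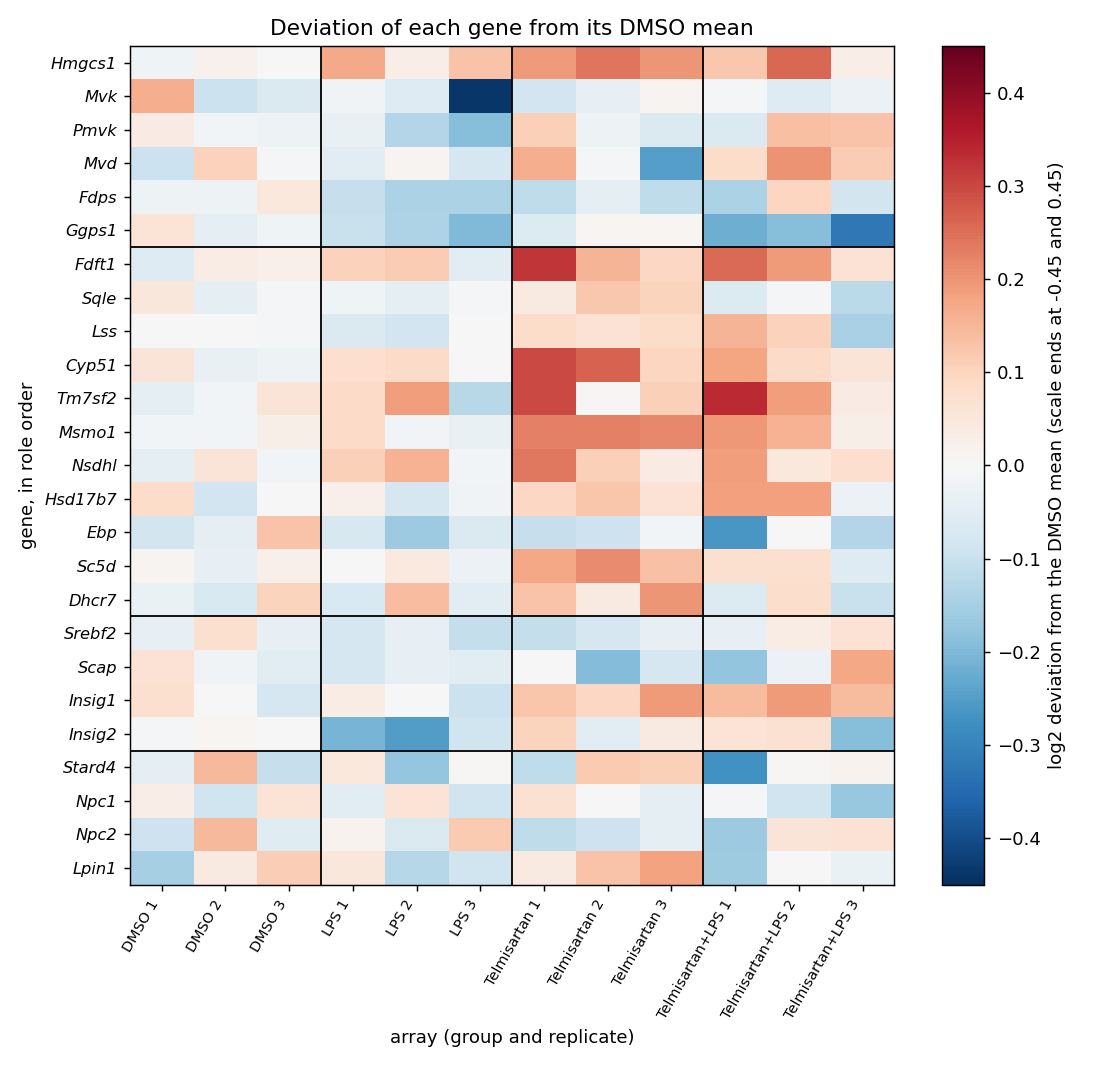
Deviation of each of the 25 pathway genes (rows, by role) on each of the 12 arrays (columns, by group) from the gene's DMSO mean, in log2 units, blue below and red above. The Telmisartan arrays are mostly red across the rows from squalene to cholesterol, and the row of Ggps1 is blue in all 6 arrays given LPS.

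LPS was compared with DMSO to ask what 1 h of the ligand does to the pathway without the drug. Of the 25 genes, 9 were higher and 16 lower, with a median of -0.027 (all genes, -0.0067, with 46.7% higher), or -0.042 when LPS replicate 1 was left out. The groups did not overlap for 1 gene higher, Hmgcs1 (4%; all genes, 6.28%), and for 4 lower, Pmvk, Fdps, Ggps1 and Insig2 (16%; all genes, 9.42%). At an unadjusted p under 0.05 in limma, 0 genes were higher (all genes, 4.09%) and 2 lower (8%; all genes, 4.93%). None was called after Benjamini-Hochberg adjustment, against 0.428% of all genes (0.379% higher and 0.0496% lower), and the smallest adjusted p was 0.531.

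Insig2 was at 6.36, 6.38 and 6.37 in DMSO and at 6.16, 6.12 and 6.28 in LPS. The DMSO arrays were nearly equal, all LPS arrays were below them, and the difference was -0.18 (SE 0.081, adjusted p = 0.531). Mvk, the mevalonate kinase, was at 6.46, 6.2 and 6.23 in DMSO and at 6.28, 6.24 and 5.86 in LPS. Its difference of -0.17 (SE 0.105) rested on the third LPS array and was -0.037 without it. Fdps was at 9.69, 9.69 and 9.76 in DMSO and at 9.61, 9.57 and 9.57 in LPS, and differed by -0.13 (SE 0.071, adjusted p = 0.619 in limma). Hmgcs1, at 9.83, 9.69 and 9.79 in LPS, was 0.11 higher (SE 0.071) with an interval that spanned 0.

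Telmisartan+LPS was compared with Telmisartan for the same step in drug-treated cells. Here 10 genes were higher and 15 lower, with a median of -0.04 (all genes, 0.013, with 53.7% higher). The groups did not overlap for 5 genes lower, Ggps1, Sqle, Msmo1, Sc5d and Lpin1 (20%; all genes, 8.95%), and for 0 higher (all genes, 8.03%). At an unadjusted p under 0.05 in limma, 3 were lower (12%; all genes, 6.56%) and 0 higher (all genes, 7.07%). No pathway gene was called after Benjamini-Hochberg adjustment, against 0.261% of all genes (0.248% higher and 0.0135% lower). Leaving out Telmisartan+LPS replicate 1 gave a median of -0.062, leaving out replicate 2 gave -0.073, and leaving out replicate 3 gave -0.01. Of the enzymes from squalene on, 9 of 11 were lower (median -0.063).

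Ggps1 makes geranylgeranyl diphosphate, a lipid that is attached to proteins as a membrane anchor. It was at 8.45, 8.35 and 8.37 in DMSO, 8.29, 8.25 and 8.19 in LPS, 8.33, 8.4 and 8.4 in Telmisartan, and 8.17, 8.2 and 8.07 in Telmisartan+LPS. All 6 arrays given LPS lay below all 6 without it (8.07 to 8.29 against 8.33 to 8.45), as for no other of the 25 genes and for 0.649% of all genes in this direction. The difference was -0.15 (SE 0.065, adjusted p = 0.532) without drug, -0.23 (SE 0.065, adjusted p = 0.186) with drug (-0.24 and -0.19 with Telmisartan+LPS replicate 1 or 3 left out), and -0.19 on average (SE 0.046, interval -0.29 to -0.089, adjusted p = 0.0996 in limma with Benjamini-Hochberg adjustment). Ggps1 was the single pathway gene to pass the threshold under another setting, and did so in this average only. Its adjusted p was 0.0305 with the trend and robust options, 0.0223 with dim genes left out and 0.0388 with arrays centred on their medians. Leaving out Telmisartan+LPS replicate 1 or 3 gave -0.19 and -0.17, with adjusted p of 0.141 and 0.164.

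Sqle was at 9.68, 9.76 and 9.74 in Telmisartan and at 9.58, 9.63 and 9.52 in Telmisartan+LPS, without overlap, a difference of -0.15 (SE 0.062, adjusted p = 0.312 in limma). It was -0.15 and -0.12 with Telmisartan+LPS replicate 1 or 3 left out. In LPS without drug it was at 9.62, 9.6 and 9.63, inside the DMSO range. Lpin1, a phosphatidate phosphatase and SREBP target, was at 6.14, 6.23 and 6.28 in Telmisartan and at 5.94, 6.1 and 6.07 in Telmisartan+LPS, and differed by -0.18 (SE 0.084, adjusted p = 0.369), or by -0.13 and -0.20 with those arrays left out. Its DMSO arrays, at 5.95, 6.14 and 6.21, and LPS arrays, at 6.15, 5.97 and 6.01, overlapped. Mvd went the other way by 0.16, which was 0.055 without the third Telmisartan array, its lowest at 7.3.

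**Figure D5:**
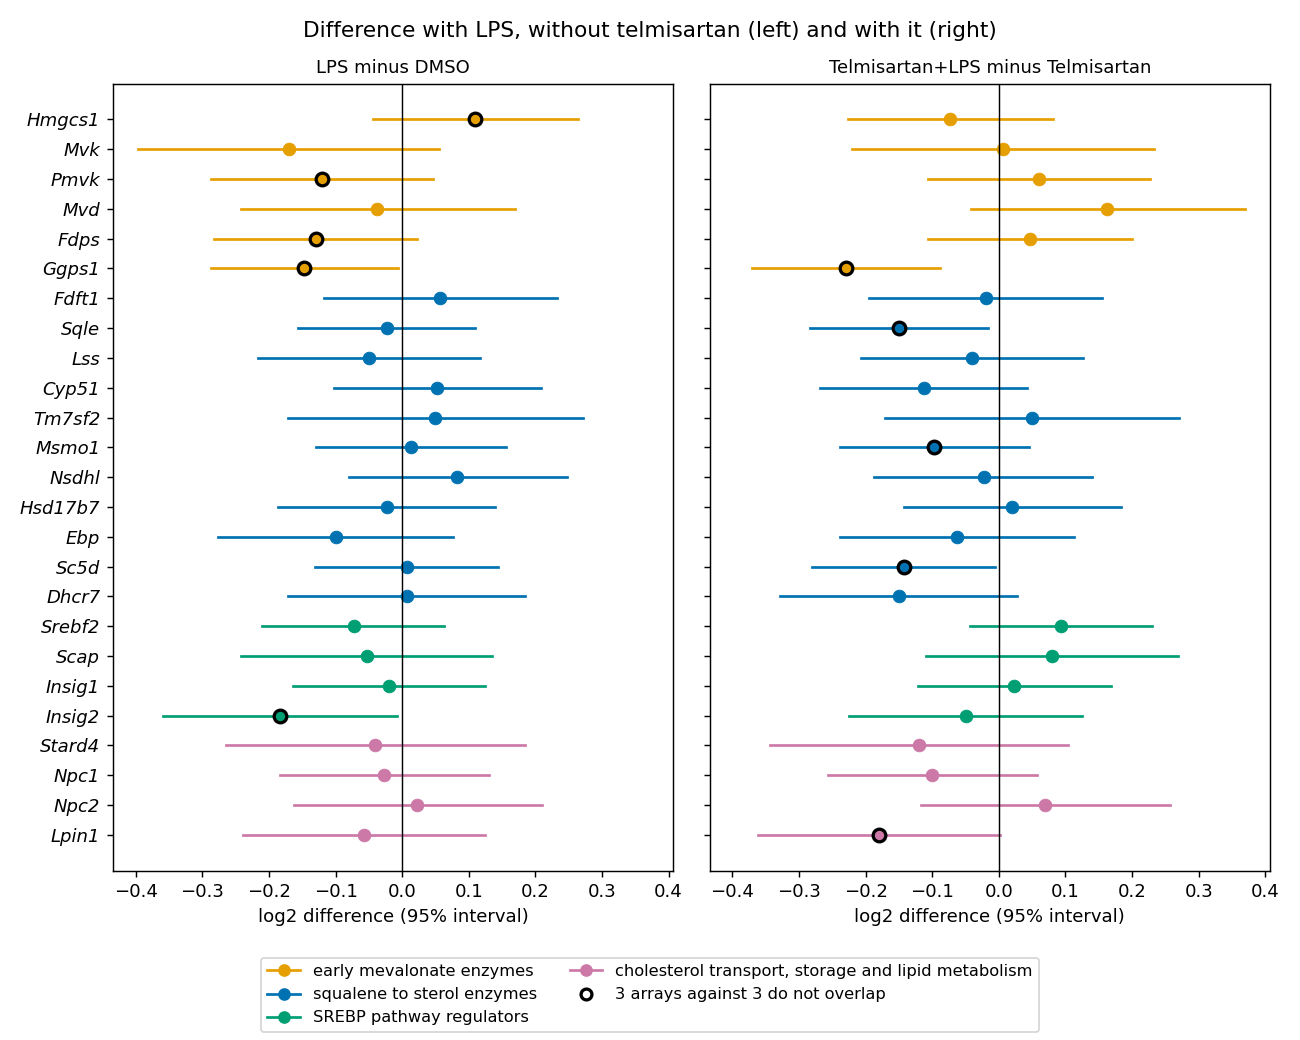
Log2 differences of the 25 pathway genes (points, with 95% intervals of the limma fit as bars) with LPS in the absence and in the presence of telmisartan. Ggps1 is below 0 in both, at -0.15 and -0.23, and most other intervals span 0.

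On the average of both drug states, 9 of 25 genes were higher and 16 lower with LPS, 1 of them (Ggps1) at an unadjusted p under 0.05 (4%; all genes, 7.61%) and 0 higher at that p (all genes, 6.79%). Of all genes 50.8% were higher with LPS, and 0.667% were called (0.537% higher and 0.131% lower). The median of -0.042 over the 25 genes was -0.016 when LPS replicate 3 was left out, and -0.033 and -0.032 when Telmisartan+LPS replicate 1 or 3 was. Lpin1 and Insig2 averaged -0.12 each and Sqle -0.087. The regulators Insig1, Srebf2 and Scap, at 0.002, 0.01 and 0.013, had no direction that held, since each was below 0 with arrays centred on their medians.

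The interaction asked whether the LPS difference was another with the drug than without. Of the 25 genes 12 were higher, 12 lower and Tm7sf2 at 0 (all genes, 53.5% higher), and the smallest adjusted p was 0.662. The values farthest from 0 were Mvd at 0.20 (SE 0.135), Hmgcs1 at -0.18 (adjusted p = 0.669 in limma), Pmvk, Mvk and Fdps at 0.18 each, and Srebf2 at 0.17 (SE 0.089, adjusted p = 0.662) and Cyp51 at -0.17. Without Telmisartan+LPS replicate 1 the median of the 25 genes was -0.048 and the smallest adjusted p 0.444, and without replicate 3 they were 0.0067 and 0.75. None was called, as 0% of all genes, and 0 of 25 passed an unadjusted p under 0.05 (all genes, 4.81% higher and 2.97% lower). Intervals over the 25 genes reached from -0.41 to 0.5, a span that includes differences as large as those of the single comparisons.

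Other genes of the pathway were taken from lists of related genes. Of all genes tested, 50.8% were higher with telmisartan on average, with a median of 0.0017, and 0.00451% were called. For the average LPS effect these values were 50.8%, 0.0033 and 0.667%. Of 10 further sterol synthesis genes measured, 7 were higher with telmisartan on average (median 0.022), and 0 were called. Erg28, known in yeast as a scaffold of the complex that removes sterol methyl groups, had the highest average at 0.18 (SE 0.057, adjusted p = 0.573). Of 13 genes of SREBP cutting and retention, 8 were higher with the drug (median 0.017), with Erlin2, a membrane protein that binds the SREBP complex, at 0.16 (SE 0.075), and 12 of 13 were lower with LPS on average (median -0.063), with Erlin1 at -0.13 and Mbtps1, the first protease that cuts SREBP, at -0.12. None of these was called.

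A list of LXR targets and other genes of cholesterol efflux lay mostly below 0 with the drug. LXR is the oxysterol receptor that drives cholesterol export, and the list also holds the LXR gene Nr1h3 and the transporter Abca7. Of 9 measured, 7 were lower in each drug comparison, with medians of -0.16 without LPS and -0.063 with LPS, and 0 were called. Of all genes tested, 46.9% were higher with the drug without LPS and 53.7% with LPS. Their medians were -0.0067 and 0.013, and 0% were called. Abca1, the main cholesterol exporter, was at 7.44 ± 0.056 in DMSO, 7.75 ± 0.075 in LPS, 7.19 ± 0.047 in Telmisartan and 7.34 ± 0.026 in Telmisartan+LPS (SD, n = 3 each). The ranges of the 4 groups did not overlap, at 7.15 to 7.24 in Telmisartan, 7.31 to 7.36 in Telmisartan+LPS, 7.39 to 7.5 in DMSO and 7.68 to 7.83 in LPS. With the drug Abca1 averaged -0.33 (SE 0.046, interval -0.43 to -0.23, adjusted p = 0.0667 in limma), which was not called, although its adjusted p was 0.00717 with the trend and robust options and 0.00725 with dim genes left out. With LPS it rose by 0.23 on average (SE 0.046, adjusted p = 0.0386), the single call among the lists of genes related to the pathway. That call was lost in every setting that left out an array except the one without LPS replicate 2 (adjusted p from 0.0485 to 0.107) and with arrays centred on their medians (0.0883).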

How the data were processed

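Gene expression was measured on 12 Affymetrix mouse gene arrays, 3 in each of 4 groups. The authors deposited RMA signals on the log2 scale. Per the file headers, this was engine 1.4.1.46 of Expression Console, with background correction, quantile normalization over all arrays and median polish. The file headers name the second-generation array, whereas the labels' labelling protocol names an earlier design. A summary table (2 decimals) was used, and the deposited series matrix (5 decimals) as an alternative. They differed by at most 0.005. Both held 0 columns of other samples. Arrays have no read depth, and their number limits the precision.

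Of 41345 features, 23521 had 1 gene symbol, 1820 several and 16004 none in the platform annotation. Symbols of 23328 features were updated through Entrez identifiers. The brightest feature stood for each gene, which left 22180 genes. All 25 pathway genes had a mean above 5, and Scap and Npc1 had 2 features each, of which the dimmer was not used.

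A linear model of 4 group means was fitted over all 12 arrays in limma 3.58.1 (R 4.3.3) with eBayes and Benjamini-Hochberg adjustment over all genes. It had 8 residual and 4.99 prior degrees of freedom. The model was tested on simulated data. Average effects are means of the 2 drug or the 2 LPS differences. The genes of the pathway and all lists were chosen with earlier results of these data known, so no list was tested. The pathway and the lists of related genes are described by counts, with medians for most, beside those of all genes. Array values are given for the 4 genes with the largest absolute difference in each of the 4 comparisons of groups, and for Hmgcs1, Sqle, Insig1, Insig2, Srebf2, Scap and Stard4. Sc5d was added after its values were seen. From each list of related genes, up to 2 with the largest average drug and LPS effects are named. Alternatives were the series matrix, trend and robust options, dim genes left out, the mean of all features, the compared groups only, arrays centred on their medians, and each array left out. Promoters are from RefSeq (GRCm38.p6). No genome build enters the array values.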

Additional observations from a re-analysis of the deposited data

How the results depend on the processing

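No paired analysis was made. The running numbers in the sample titles repeat the order DMSO, LPS, Telmisartan and Telmisartan+LPS. The labels do not say whether such a run was handled together, and no block by run was fitted. The precision is that of 3 arrays a group, so a pathway gene that was not called is not shown to be unchanged. Under all alternatives, 0 pathway genes were called in the 4 comparisons of groups, in the interaction and in the average drug effect. For the average LPS effect 1 gene, Ggps1, was called with the trend and robust options, with dim genes left out and with centred arrays, and 0 with the others. The direction was kept under every alternative by 18 of 25 genes for the drug without LPS, 17 for the drug with LPS, 20 for the average drug effect, 13 for LPS minus DMSO, 14 for Telmisartan+LPS minus Telmisartan, 16 for the average LPS effect and 19 for the interaction. The causes of the shifts below were not tested.

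Counts of all genes called moved most. With the trend and robust options they were 14 for Telmisartan+LPS minus LPS (0 as reported), 164 for Telmisartan+LPS minus Telmisartan (58 as reported), 1 for the interaction (0), 12 for the average drug effect (1) and 281 for the average LPS effect (148). With dim genes left out they were 9, 182, 3, 13 and 360 in the same order. With the compared groups only, Telmisartan+LPS minus Telmisartan gave 35, and with centred arrays the average LPS effect gave 230. When single arrays were left out, they ran from 0 to 5, 31 to 66, 0 to 3, 0 to 1 and 97 to 158 in that order.

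Centring moved the median of the 25 genes to -0.0567 for LPS minus DMSO, -0.1 for Telmisartan+LPS minus Telmisartan, -0.0867 for the average LPS effect and -0.03 for the interaction. It left 5, 4 and 3 genes higher with LPS without drug, with drug and on average. It turned the average LPS effect of Hmgcs1 to -0.0267, of Insig1 to -0.0433, of Srebf2 to -0.035 and of Scap to -0.0317. Leaving out single arrays gave a median from 0.045 (without DMSO replicate 1) to 0.0783 for Telmisartan minus DMSO, from -0.0733 to -0.01 (without Telmisartan+LPS replicates 2 and 3) for Telmisartan+LPS minus Telmisartan, from -0.0492 to -0.0158 (without LPS replicate 3) for the average LPS effect, and from -0.0567 to 0.0133 for the interaction. It also turned average drug effects near 0, which ran from -0.000833 to 0.0283 for Srebf2, from -0.0692 to 0.0183 for Scap and from -0.0367 to 0.0442 for Stard4. Average LPS effects ran from -0.0125 to 0.045 for Hmgcs1, from -0.0175 to 0.0208 for Insig1, from -0.000833 to 0.0283 for Srebf2 and from -0.0325 to 0.055 for Scap.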

Other observations

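Lists next to the cholesterol pathway were described in the same way, on the averages over both states. Of all genes tested, 50.8% were higher with telmisartan on average, with a median of 0.0017, and 0.00451% were called. For LPS these values were 50.8%, 0.0033 and 0.667%. Of 15 genes of SREBP1-driven fatty acid synthesis, 9 were higher with telmisartan (median 0.012) and 13 were lower with LPS (median -0.037), and 0 were called. Acaca, an acetyl-CoA carboxylase, averaged -0.072 (SE 0.047) with the drug, or -0.043 when LPS replicate 3 was left out. Of 11 genes of the isoprenoid branch and protein prenylation, 10 were lower with LPS on average (median -0.075). The exception was Rabggtb, a subunit of Rab geranylgeranyl transferase, at 0.51 (SE 0.11, adjusted p = 0.0687 in limma with Benjamini-Hochberg adjustment), whose adjusted p was 0.0254 with dim genes left out. Its arrays were spread in every group but LPS, at 8.53 ± 0.31 in DMSO, 8.75 ± 0.066 in LPS, 8.09 ± 0.27 in Telmisartan and 8.89 ± 0.22 in Telmisartan+LPS (SD, n = 3 each).

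Of 6 genes of oxysterol synthesis and turnover, 4 were higher with the drug, and 3 were higher and 3 lower with LPS. Cyp27a1, a sterol hydroxylase, averaged -0.18 (SE 0.063) with LPS, and Ch25h, another, was below the dim limit of 5 in all groups. Of 17 genes of uptake, esters and lysosomes, 12 were lower with the drug (median -0.022), with the scavenger receptor Msr1 at -0.093 (SE 0.077), which ran from -0.149 without Telmisartan+LPS replicate 2 to -0.022 when replicate 3 was left out, and the oxysterol-binding protein Osbp averaged -0.17 (SE 0.052, adjusted p = 0.177 in limma) with LPS. None of these genes was called, and the values of all genes are those given above for both averages.

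After the group means were removed, the mean pairwise correlation over the 12 arrays was 0.23 among the 17 synthesis enzymes, 0.0969 among all 25 genes and 0.00221 among all genes tested. The points share arrays and 8 residual degrees of freedom, so this is a description only.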
